A study of Allium sativum with 42 samples.

Results

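In garlic (Allium sativum), 454 of 58219 gene IDs were steadily expressed by a rule on group means of FPKM, fragments per kilobase of transcript per M (mega) mapped fragments. The members were chosen by these measured values. The mean of the 3 libraries of each of 14 groups was taken, the lowest of the 14 means had to be at least 20 FPKM, the highest below 300 FPKM, and the highest at most 2 times the lowest. Of all IDs, 2747 met both limits of level, and the 454 steady genes were 16.5% of these. The other 2293, called here genes of the same level that were not steady, serve as the comparison throughout. Because the rule used the 14 means, the flatness of the means is how the genes were found and not a result, and it is described without a test.

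The series profiled 42 RNA-seq libraries of 1 field-grown cultivar, Ershuizao, with 3 libraries in each group. The bulb was sampled at 8 ages, at steps of 5 days, from 192 days, before expansion, to 227 days, when expansion had ended. Buds were labelled 10 days old, leaves, pseudostems, garlic sprouts and roots 212 days, and flowers 217 days, although the day given in the growth protocol for the tissues coincides with the bulb sampling at 217 days. No group was treated or genetically altered, and nothing states that replicates came from separate plants, so the spread between them may be technical in part.

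A steadily expressed gene is one whose transcript takes up a similar share of the RNA in different organs and at different ages. Genes of general cell upkeep, such as those for protein synthesis and turnover, the cytoskeleton and central metabolism, are often of this kind, and such genes serve as references when the transcript of another gene is measured by quantitative PCR. FPKM is itself relative: it divides the fragments of a gene by those of its library, so a gene with the same number of molecules in each cell reads lower where other transcripts take more of the library. The deposited table does not pair the IDs with gene names, functions or sequences, so neither the roles of the 454 genes nor any sequence of theirs is given, and genes are called by ID.

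Whole reads could be recovered from the deposited values. The libraries held 5.92 M reads on genes in replicate 1 of the leaf to 35.4 M in replicate 2 of the 197-day bulb. Replicates differed beyond sampling noise in every pair. Replicate 2 of the 227-day bulbs stood apart, with Pearson correlations of log2 values of 0.899 and 0.902 with the other libraries of its group, where the next lowest pair in any group, in root, reached 0.960. Results on the 227-day bulbs and counts over single libraries are therefore also given without it, for the same 454 genes. All 454 steady genes had at least 10 FPKM in all 42 libraries, and the fewest reads behind any of their values were 32, so none of the levels rests on a handful of reads.

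The steady genes were of moderate level, as the limits of the rule require. Their mean over the 14 groups had a median of 44.7 FPKM, with the middle 50% between 34.6 and 66.9 FPKM and extremes of 24.6 and 246 FPKM. Together they took from 1.74% of summed FPKM in replicate 2 of the 227-day bulb to 2.69% in replicate 2 of the 217-day bulb. The limits of the rule hold this share within a narrow range, so its narrowness is not a result. By group, the share was lowest at 1.89% ± 0.128 (SD, n = 3) in 227-day bulbs (1.96% ± 0.024, n = 2, without replicate 2) and highest at 2.55% ± 0.060 (SD, n = 3) in 207-day bulbs. In these bulk samples, fewer cells of a type and less RNA per cell cannot be told apart.

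The ratio of the highest to the lowest group mean had a median of 1.79 among the steady genes, and its lowest value was 1.26. No gene of this level had a ratio below 1.25. Between 1.25 and 1.5 there were 33 genes, between 1.5 and 1.75 there were 149, and between 1.75 and 2 there were 272. Past the limit, in steps of the same width, there were 322, 301, 275 and 244 genes up to a ratio of 3. The limit of 2 thus lies just before the fullest of these steps, with no gap on either side. Among the genes of the same level that were not steady the median ratio was 3.01 and the highest 13.8.

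**Figure D1:**
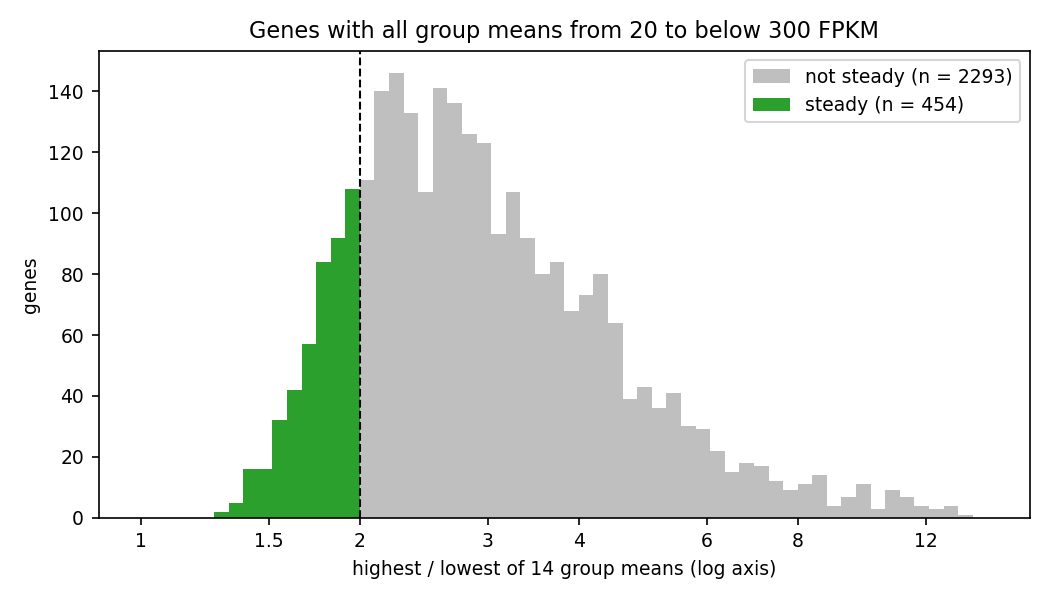
Number of genes with all 14 group means from 20 to below 300 FPKM, by the ratio of the highest to the lowest group mean (log axis), with the 454 steady genes in green, the 2293 others in grey and the limit of 2 dashed. The steady genes are the lower flank of the distribution, with no gap at the limit.

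The 4 genes nearest the ratio limit show how little separates the sides. Asa3G06536.1, just inside, had a highest mean of 63.0 ± 15.5 FPKM in 192-day bulbs and a lowest of 31.5 ± 2.38 FPKM in 212-day bulbs (SD, n = 3), and Asa7G04089.1, also inside, went from 50.5 ± 0.916 FPKM in 202-day bulbs to 25.3 ± 12.1 FPKM in 227-day bulbs. Asa7G03432.1, just outside, went from 211 ± 21.4 FPKM in 197-day bulbs to 105 ± 7.40 FPKM in buds, and Asa4G03933.1, also outside, from 62.3 ± 7.89 FPKM in sprouts to 31.1 ± 5.75 FPKM in roots. In all 4 genes the spread between replicates of 1 group is far larger than the distance to the limit. At the limits of level, Asa7G06081.1 was inside with a lowest mean of 20.02 ± 5.17 FPKM in 222-day bulbs, and Asa5G05581.1 was outside with 19.995 FPKM in roots. At the upper limit, Asa2G02672.1 was inside with 298 ± 9.03 FPKM in 202-day bulbs, and Asa5G06828.1 outside with 339 ± 29.9 FPKM in leaves.

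The flattest gene, Asa7G02872.1, had 30.4, 28.0 and 26.2 FPKM in the libraries of the 192-day bulb, its lowest group, and 42.2, 33.5 and 31.1 FPKM in those of the root, its highest. In the other bulbs it had 32.5, 26.1 and 28.0 FPKM at 197 days, 32.5, 33.2 and 30.8 at 202 days, 28.2, 29.5 and 29.3 at 207 days, 27.8, 25.9 and 32.2 at 212 days, 33.9, 41.4 and 31.1 at 217 days, 31.2, 33.7 and 30.2 at 222 days, and 31.6, 30.2 and 38.6 at 227 days. In the other tissues it had 34.6, 34.4 and 34.7 FPKM in bud, 30.2, 32.6 and 31.1 in leaf, 35.1, 39.2 and 30.1 in pseudostem, 26.3, 29.1 and 32.6 in sprout, and 31.9, 32.8 and 28.0 in flower. The 2 extreme groups do not overlap, although they were picked as its highest and lowest from these same values, which favours a gap. The 3 bud libraries lie closest together, and the highest single library is a root one. With means of 28.2 ± 2.09 and 35.6 ± 5.82 FPKM at its extremes, its ratio was 1.26. Its spread within groups was 0.14 on the log2 scale (pooled SD of single libraries), and the SD between its group means was 0.12. Means of 3 libraries vary less than single libraries, so these 2 values are not on an equal footing.

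The next flattest gene, Asa1G02490.1, was flat in its means and uneven in its libraries. Its group means ran from 45.7 ± 5.05 FPKM in 197-day bulbs to 58.6 ± 15.9 FPKM in pseudostems (SD, n = 3), a ratio of 1.28. Its 217-day bulbs had 65.0, 70.5 and 20.4 FPKM, the last far below the other two. The pooled SD within groups was 0.33 on the log2 scale, against 0.12 between the group means, which are again averages of 3 libraries. A flat profile of means therefore did not require that replicates lay close together.

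The genes with the highest means were Asa2G02672.1 and Asa3G00176.1. Asa2G02672.1 averaged 246 FPKM and had 292, 293 and 308 FPKM in 202-day bulbs against 202, 184 and 198 FPKM in buds, its extremes, a ratio of 1.53. Asa3G00176.1 averaged 242 FPKM and had 290, 278 and 274 FPKM in 207-day bulbs against 227, 201 and 186 FPKM in roots, a ratio of 1.37. For both genes the 2 extreme groups do not overlap, but they were picked as highest and lowest from these same values, which favours a gap. At the other end, Asa5G03383.1 averaged 24.6 FPKM, with 29.6, 27.6 and 30.2 FPKM in buds and 19.4, 20.8 and 23.1 FPKM in 212-day bulbs, a ratio of 1.38. Its extreme groups, picked in the same way, do not overlap either. It had the lowest mean level of the 454.

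Each group was the highest for some steady genes, and the groups differed in how often they held an extreme. The bud held the highest mean of 67 genes and the lowest of 11, and the 207-day bulb held the highest of 46 and the lowest of 0. The 227-day bulb held the highest mean of 7 genes and the lowest of 117 (1 and 81 without its replicate 2), the flower the highest of 15 and the lowest of 71, and the root the highest of 38 and the lowest of 69. Leaf and 192-day bulb were extreme in both directions, with 44 highest and 48 lowest for leaf and 39 highest and 35 lowest for the 192-day bulb. The order was partly that of all genes of this level. Among the 2293 genes that were not steady, the 227-day bulb also held the most lowest means, 610, followed by root with 426. Without replicate 2 of the 227-day bulbs its 610 became 382, and among the steady genes its 81 lowest means stood beside 80 in flowers and 73 in roots. Among the genes that were not steady, the most highest means were held by the 197-day bulb, with 378, and the 192-day bulb, with 348.

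**Figure D2:**
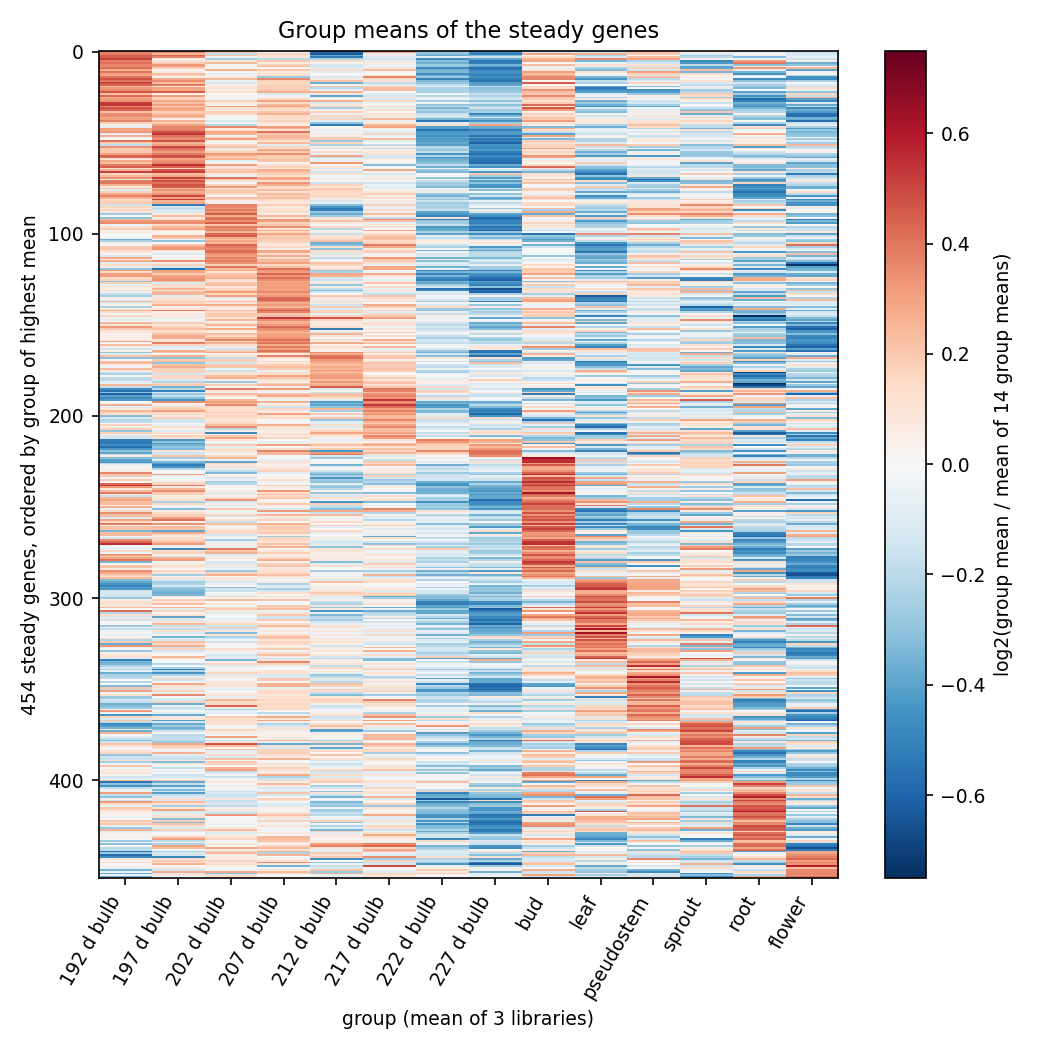
Group means of the 454 steady genes as log2 of the deposited FPKM mean over the gene's own mean of 14 groups, 1 row per gene, ordered by the group of its highest mean, with 14 groups of 3 libraries as columns. On the deposited FPKM scale, blue dominates at 222 and 227 days and in the flower, which other scalings of the libraries change (−0.28 in 227-day bulbs with FPKM, +0.17 with quantile normalization).

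Part of this order went with shifts of the whole set. For each library, the median over the 454 genes of log2(FPKM over the gene's own mean of 14 groups) gives the position of the set. In 227-day bulbs it was −0.24, −0.37 and −0.21, and in 222-day bulbs −0.22, −0.13 and −0.23. In flowers it was −0.19, −0.13 and −0.23, and in 207-day bulbs 0.19, 0.14 and 0.09. The libraries of the first 3 groups all lie below those of the 207-day bulb, and the 227-day group lies low with or without its replicate 2. On that scale, 378 of the 454 genes were above their own mean in 207-day bulbs, against 64 in 227-day bulbs (58 without replicate 2), 69 in 222-day bulbs and 104 in flowers.

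The position of the set depended on how libraries were scaled. Median-of-ratios scaling divides each library by the median ratio of its genes to a common reference, and quantile normalization gives all libraries the same distribution of values. The 227-day bulb stood at −0.28 ± 0.08 (log2, SD, n = 3) with the deposited FPKM, at −0.30 ± 0.14 with TPM, which sets all library sums equal, at −0.01 ± 0.10 after median-of-ratios scaling and at +0.17 ± 0.07 after quantile normalization. Without its replicate 2 these 4 values were −0.23 ± 0.02, −0.23 ± 0.03, −0.08 ± 0.02 and +0.14 ± 0.04 (n = 2), of the same signs. The flower went from −0.18 ± 0.05 with FPKM to +0.05 ± 0.01 with median-of-ratios scaling, and the bud from +0.08 ± 0.05 to −0.29 ± 0.01. The root went from −0.12 ± 0.06 to +0.24 ± 0.15. The 197-day bulb was above 0 under these 4 scalings, and each other group changed sign under at least 1 of them. Whether the set as a whole was lower or higher in a group can therefore be stated only for a named scaling.

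**Figure D3:**
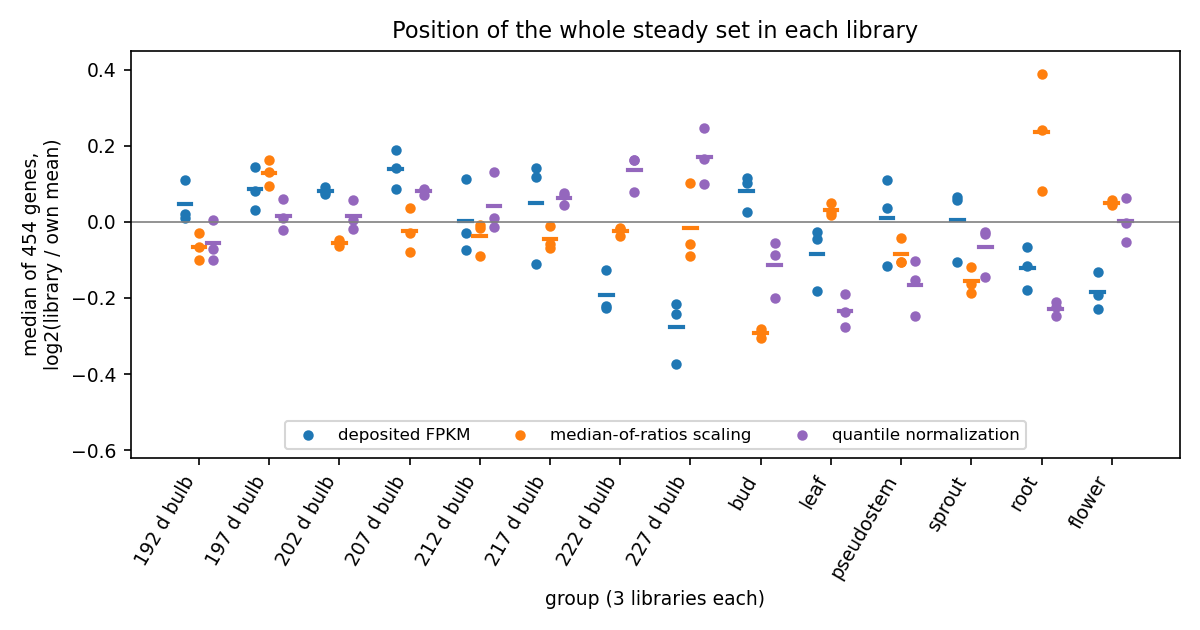
Median over the 454 steady genes of log2(library value over the gene's own mean), 1 point per library and 1 bar per group mean of 3 libraries, for deposited FPKM (blue), median-of-ratios scaling (orange) and quantile normalization (purple). The 227-day bulbs stand at −0.28 with FPKM, −0.01 after median-of-ratios scaling and +0.17 after quantile normalization, and the buds at +0.08, −0.29 and −0.11.

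Membership also moved with the scaling. The rule gave 357 genes with TPM, 588 after median-of-ratios scaling and 693 after quantile normalization, in place of 454. Of the 454, 276 were steady also with median-of-ratios scaling, which is 60.8% of the 454 and 46.9% of the 588. In all, 180 genes, 39.6% of the 454, were steady under all 4 scales (deposited FPKM, TPM, median of ratios, quantile), and 31 were steady with the deposited FPKM alone. Without replicate 2 of the 227-day bulbs, TPM gave 421 genes, median-of-ratios scaling 608 (286 of the 454) and quantile normalization 738, and 202 of the 454 were steady on all 4 scales. The flattest gene, Asa7G02872.1, had a ratio of 1.35 with TPM and 1.76 with median-of-ratios scaling. Asa2G02672.1, the gene of highest mean, went past the limit, to 2.07, with median-of-ratios scaling, while Asa3G00176.1 had a ratio of 1.28 there. Asa5G03383.1, the gene of lowest mean, had 1.38 with TPM and 1.45 with median-of-ratios scaling.

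With the part common to each library taken out, what remained differed from gene to gene. Of the variance of the members' log2 values, 19.1% was shared by all steady genes of a library, 56.0% was particular to a gene in a group, and 24.9% lay within groups (17.4%, 59.0% and 23.6% without replicate 2 of the 227-day bulbs). Among genes of the same level that were not steady the parts were 12.4%, 72.0% and 15.6%. In both sets the second part also holds replicate noise left in means of 3 libraries, so it overstates differences between groups. After centring each gene and each group, the profile of the 222-day bulb was most like that of the 227-day bulb (Pearson r of 0.69 across the 454 genes, as a description, since genes are not independent replicates), and r was 0.76 without replicate 2 of the latter. The 192-day bulb was most like the 197-day bulb (0.66), the leaf most like the pseudostem (0.44), the bud most like the 192-day bulb (0.41) and the 202-day most like the 207-day bulb (0.36). The flower resembled no other group beyond 0.12 and the sprout none beyond 0.17. The 212-day bulb was most like the 207-day bulb (0.30). The 217-day bulb was most like the 202-day bulb (0.33), so that it alone of the bulb ages was not most like a neighbouring age. Replicate 3 of the 217-day bulb was uneven, however. The SD over members of log2(FPKM over own mean) was 0.33 there, against 0.18 and 0.21 in replicates 1 and 2. The likeness was not computed without that library.

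Bulb ages and the other tissues can be taken apart as a description. Within the 8 bulb ages the ratio of highest to lowest mean had a median of 1.54 among the steady genes (1.51 without replicate 2 of the 227-day bulbs), and within the 6 other tissues it was 1.59, both held under 2 by the rule. Among genes of the same level that were not steady, these medians were 2.13 and 2.40. With the rule applied to the 8 bulb ages alone, 2074 genes passed (2317 without that library), of which 21.9% were steady over all 14 groups. With the 6 other tissues alone, 1256 passed, of which 36.1% were steady over all 14. Fewer groups give fewer chances to exceed the limit, so neither the 2 ratios nor the 2 counts are on an equal footing.

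Leaving out 1 group at a time showed which groups held genes back. Without root, 659 genes were steady, 205 more than with it. Leaf came next with 113 added genes, followed by the 227-day bulb with 111 (52 without its replicate 2), the flower with 72, the bud with 65 and the 192-day bulb with 57. The middle bulb ages held back few, with 3 added genes for 217 days, 6 for 207 days and 8 for 202 days. Root was thus the group that alone kept the most genes out with the deposited FPKM. Other scalings were not tried for these counts.

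The spread between replicates was not part of the rule, although the same libraries made the means. The pooled SD within groups of log2(FPKM + 1) had a median of 0.17 among the steady genes, with a range of 0.09 to 0.45. It was 0.22 among the genes of the same level that were not steady and 0.33 among all 34160 genes that reached 1 FPKM in at least 3 libraries. In each of the 14 groups the median SD of the steady genes was below that of the others of the same level, for instance 0.07 against 0.10 in 202-day bulbs, 0.18 against 0.22 in roots and 0.18 against 0.26 in 227-day bulbs (0.09 against 0.11 without replicate 2). Counting error was alike in both sets, with a median SD of 0.05 in each, and accounted for a median of 7.41% of the variance within groups of the steady genes. The difference in spread is thus larger than counting error gives, and since a noisier gene also has noisier means, it is not independent of the rule.

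**Figure D4:**
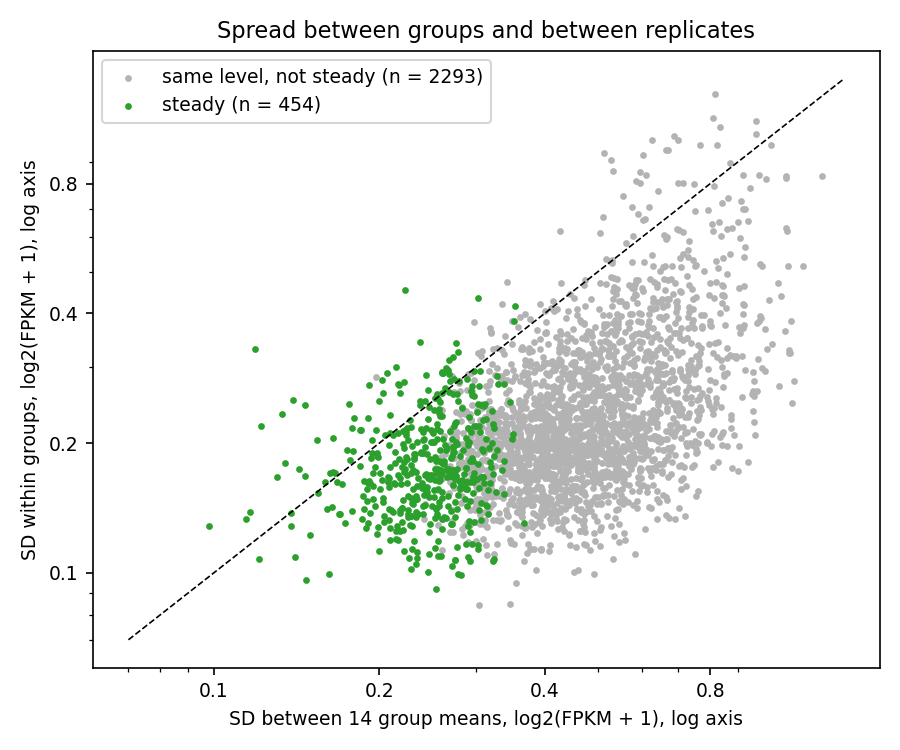
SD of log2(FPKM + 1) between the 14 group means (horizontal, log axis) and within groups of 3 replicates (vertical, log axis), 1 point per gene, for the 454 steady genes (green) and the 2293 others of the same level (grey), with equality dashed. The medians are 0.25 between and 0.17 within groups for steady genes, against 0.47 and 0.22 for the others, and 68 steady genes lie above the line. The line does not mark an absence of group differences, since means of 3 libraries vary less than single libraries.

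For most steady genes the group means still differed by more than their replicates. The SD between group means had a median of 0.25 on the log2 scale, and it was smaller than the SD within groups in only 68 of 454. Means of 3 libraries vary less than single libraries, so the 2 SDs are not on an equal footing. The 68 genes are therefore not shown to lack differences between groups. A moderated F test over the 14 groups in limma, with Benjamini-Hochberg adjustment over all 34160 genes, called 92.7% of all genes and 424 of the 454 steady genes. The rule used the same group means, so nothing is read from the second count. The 30 genes that were not called had a median ratio of 1.45 and a median SD within groups of 0.25 (log2), against 1.81 and 0.17 in those called, which the test itself weighs against each other. A missed call does not show that the groups of a gene are equal.

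The genes picked for the least spread within groups had close replicates by that choice. Asa6G07589.1, with the smallest SD within groups of the 454 (0.09, log2), had 23.2, 22.8 and 26.9 FPKM in roots and 49.0, 46.1 and 49.6 FPKM in 212-day bulbs. Its 3 root libraries lie below all its other 39 libraries, the next lowest group being the pseudostem with 32.7, 33.8 and 33.3 FPKM. Its ratio of 1.98 was near the limit, and was 2.09 with TPM and 1.60 with median-of-ratios scaling. Asa5G02596.1, with an SD of 0.10, had 35.9, 43.8 and 39.96 FPKM in leaves and 61.3, 53.8 and 53.2 FPKM in 197-day bulbs, a ratio of 1.41. Leaf and root, with 38.7, 40.3 and 45.2 FPKM, were its low groups, and the other tissues and ages lay between means of 45.6 and 56.1 FPKM.

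The noisiest genes met the rule through averages of unlike libraries. Asa5G06994.1, with the largest SD within groups (0.45, log2), had 72.9, 89.1 and 44.9 FPKM in buds, its highest group, and 46.0, 64.1 and 15.8 FPKM in 217-day bulbs. Its lowest group mean was 35.8 ± 11.4 FPKM (SD, n = 3) in 192-day bulbs. Its coding length was 477 bases, and at least 174 reads stood behind each of its values. Asa6G07153.1, with an SD of 0.44, had 65.2, 14.7 and 88.6 FPKM in 227-day bulbs and 35.9, 54.2 and 79.9 FPKM in leaves, against 86.1 ± 3.24 FPKM (SD, n = 3) in 202-day bulbs. The lowest of the 42 libraries was replicate 3 of the 217-day bulb for the former and replicate 2 of the 227-day bulb for the latter.

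**Figure D5:**
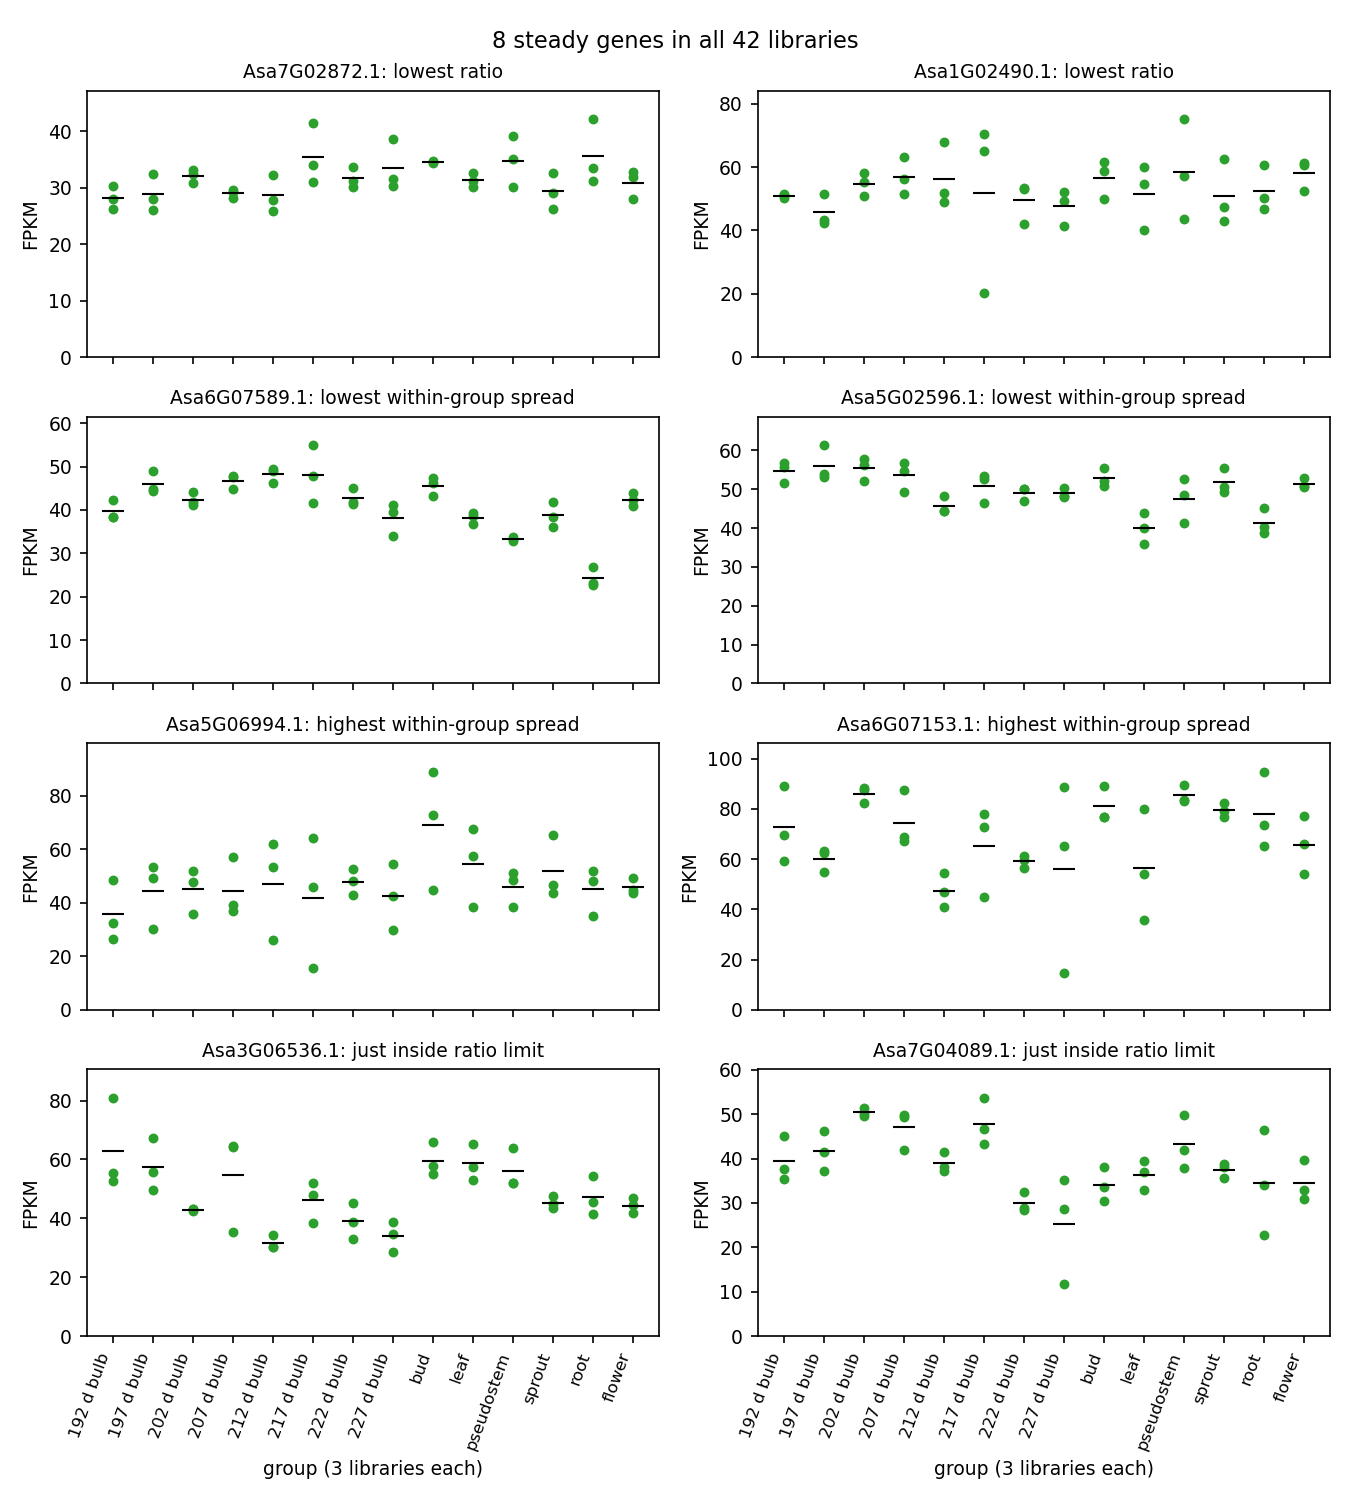
FPKM in each of 42 libraries (points) and the group means (bars, n = 3) for 8 steady genes: the 2 with the lowest ratio, the 2 with the least and the 2 with the most spread within groups, and the 2 just inside the ratio limit. Asa7G02872.1 stays between 25.9 and 42.2 FPKM throughout, while Asa6G07153.1 has 65.2, 14.7 and 88.6 FPKM in 227-day bulbs.

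Over single libraries the set was less even than over group means. The highest library was at most 2 times the lowest in 65 of the 454 genes and at most 3 times in 398, or 87.7%. The median ratio of the highest to the lowest library was 2.34, and the largest was 6.46. Single libraries ranged from 11.5 to 346 FPKM, and 359 genes stayed at 20 FPKM or more in all 42. Without replicate 2 of the 227-day bulbs, 94 genes stayed within 2 times and 427 within 3 times, the median ratio was 2.22 and the largest 5.65, and 386 genes stayed at 20 FPKM or more. Most large departures came from 1 library. In replicate 2 of the 227-day bulbs, 33 genes were more than 2-fold from their own mean, followed by 8 in replicate 3 of the root and 4 in replicate 3 of the 217-day bulb. For 120 genes the lowest of 42 libraries was replicate 2 of the 227-day bulb, and for 14 it was the highest. Without that library, 513 genes met the rule, among them 448 of the 454, and without replicate 3 of the same group 406 did, the lowest count with any 1 library left out.

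The 2 ends of bulb expansion were compared directly, at 227 against 192 days. With limma and Benjamini-Hochberg adjustment, 12.1% of all 34160 genes were higher at 227 days and 32.0% lower. Of the 454 steady genes 24 (5.29%) were higher and 201 (44.3%) lower. Of the 2293 genes of the same level that were not steady, 229 (9.99%) were higher and 1357 (59.2%) lower. Their median difference was −0.68 (log2), and the same rule had set them apart by their larger ratios. Without replicate 2 of the 227-day bulbs, 12.9% of all genes were higher and 27.1% lower, and of the steady genes 18 and 161. The median difference was −0.31 (log2) over the steady genes and −0.20 over all genes tested (−0.28 and −0.09 without that library). The balance of higher and lower steady genes belonged to the scale. With median-of-ratios scaling, 101 steady genes were higher and 63 lower, with a median difference of 0.06, beside 20.3% and 22.8% of all genes. With quantile normalization 164 were higher and 21 lower, with a median of 0.21, beside 19.1% and 23.5% of all genes. Without replicate 2 of the 227-day bulbs, 67 were higher and 64 lower with median-of-ratios scaling (18.3% and 21.0% of all genes), and 131 higher and 18 lower after quantile normalization (17.8% and 21.6% of all genes). Over all genes tested and all libraries the median was 0.0048 after median-of-ratios scaling and −0.0040 after quantile normalization, a shift of about 0.20 from the deposited scale. No direction for the set can be given apart from a scaling, and the rule, which used both groups' means, bars any reading of the counts.

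The genes picked for the greatest differences between these ages were as follows on the deposited scale. That choice favours a gap between the ages. Asa2G03549.1, with the largest difference upward, had 40.04, 46.2 and 40.2 FPKM at 192 days and 79.9, 70.2 and 76.3 FPKM at 227 days. Asa7G05024.1 followed, with 21.3, 23.9 and 19.2 FPKM against 35.9, 45.01 and 33.2 FPKM. In both genes the 2 ages do not overlap, with log2 differences of 0.83 and 0.79 (0.88 and 0.67 without replicate 2 of the 227-day bulbs). The differences downward leaned on 1 library. Asa7G05908.1 had 52.2, 49.4 and 55.6 FPKM at 192 days and 34.4, 12.8 and 36.3 FPKM at 227 days, a log2 difference of −1.02, or −0.55 without replicate 2. Asa0G00884.1 had 144, 139 and 131 FPKM at 192 days and 74.3, 45.5 and 98.3 FPKM at 227 days, a log2 difference of −0.98, or −0.68 without replicate 2. For both, the ages do not overlap, but replicate 2 of the 227-day bulbs, at 12.8 and 45.5 FPKM, lies well below its fellows.

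Asa0G00884.1, picked for a fall between 192 and 227 days, can be set beside Asa2G03549.1, picked for a rise, in the other tissues. It had 151, 142 and 103 FPKM in roots and 139, 116 and 134 FPKM in buds, close to its level in young bulbs, against 62.3, 76.1 and 88.8 FPKM in sprouts and 87.9, 83.6 and 79.4 FPKM in leaves. Asa2G03549.1 ran the other way in part, with 41.0, 46.4 and 40.3 FPKM in flowers, as low as in 192-day bulbs, and 84.3, 77.4 and 46.0 FPKM in leaves. These profiles cross, but the pair was picked for opposite differences between bulb ages, so it does not show how common this is among the members.

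Coding length, which the rule did not use, can be read from the size of 1 read on the FPKM scale. Lengths were multiples of 3 in 436 of the 454 genes, as in 94.5% of the 33821 genes that could be measured. Most thus have the form of coding sequence without untranslated regions, and the lengths are called coding lengths for this reason. No annotation was at hand to check it. The steady genes had a median coding length of 976.5 bases (169 to 5523), against 804 bases in genes of the same level that were not steady and 747 bases in the 32018 tested genes with a length. Among genes of the same level, 9.37% of those under 500 bases were steady (61 of 651), 17.1% from 500 to 1000 bases, 18.8% from 1000 to 1500, 22.7% from 1500 to 2000 and 21.2% from 2000 bases on. Spread between replicates went along with it: the median SD within groups of steady genes was 0.22 (log2) under 500 bases and 0.16 to 0.17 in the longer bands. Within narrower bands of mean level, the share for genes under 500 bases and for longer ones was 22.9% and 37.1% from 30 to 40 FPKM, 8.67% and 16.7% from 40 to 60, 7.41% and 12.02% from 60 to 100, and 5.43% and 9.67% from 100 to 300 FPKM. These shares are a description, and neither their difference nor the part of replicate spread in it was tested.

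The share of steady genes by level follows partly from the limits themselves. Among genes of the same window, 34.6% of those with a mean of 30 to 40 FPKM were steady, 15.1% from 40 to 60, 10.9% from 60 to 100, 7.52% from 100 to 150 and 10.9% (15 of 138) from 150 to 300 FPKM. From 25 to 30 FPKM the share was 80.8% (42 of 52), since a gene with so low a mean and no group under 20 FPKM has little room to vary.

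The steady genes were spread over the table. By the digit that follows Asa in the ID, the share of genes of the same level that were steady ran from 15.9% to 18.4% for the digits 1 to 8 and was 12.9% (23 of 178) for 0, against 16.5% in all. Of 239 pairs of IDs next to each other in ID order with both genes in the limits of level, 8 pairs were steady in both, which is 3.35%. Whether this departs from what the overall share of steady genes gives was not tested. In those 8 pairs coding lengths differed by a median of 1.02 on the log2 scale, with no such value taken for the other neighbouring pairs.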

How the data were processed

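The deposited table holds FPKM values, computed by the authors, for 58219 gene IDs in 42 libraries. Column names equalled sample titles, and 0 columns were left over. The submitters' processing notes name Bowtie2 and RSEM. Their versions, the reference, the annotation and the handling of reads from near-identical genes were not given in the sources used here.

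From these values, group means were taken over 3 libraries and the rule applied. The members and lists were chosen with earlier results of these data known. Values of each gene and library were whole multiples of 1 step within a tolerance of 0.001 reads, which gave reads, depth and coding length (whole within 0.02 bases); this procedure and the fits were tested on simulated data. Counting error covers sampling of reads only. Spread was computed on log2(FPKM + 1). The tests used limma 3.58.1 in R 4.3.3 on log2(FPKM + 1), 1 fit of 14 group means over 42 libraries with a variance trend, on genes with 1 FPKM in at least 3 libraries. A call needed a Benjamini-Hochberg adjusted p below 0.05. The pseudocount of 1 shrinks differences of genes near 1 FPKM, hardly those at 20 FPKM or more. Other steps used Python 3.11.15 with NumPy 2.4.6, pandas 2.3.3 and matplotlib 3.10.9.

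Genes named are those with the lowest ratio, the highest and lowest mean, the lowest and highest spread within groups, the largest differences at 227 against 192 days, and those nearest either side of each limit. Alternatives covered scaling, limits, pseudocount, filter, groups, replicate block and libraries left out. Lists of functions could not be applied, since no table used here pairs the IDs with names.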

Additional observations from a re-analysis of the deposited data

How the results depend on the processing

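The number of steady genes, 454, was 33 with a ratio limit of 1.5 and 1596 with 3, 859 with a low limit of 10 FPKM and 1374 with none, 693 with quantile normalization and 59 when each single library had to meet the rule. Over groups chosen after seeing the data it was 878 without 222-day and 227-day bulbs and flowers, 2074 in bulbs alone and 1256 in the 6 other tissues alone. It was 444 with medians of 3 libraries and 470 with no high limit. With 1 library left out it ranged from 406 to 513.

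At 227 against 192 days, 24 steady genes were higher and 201 lower. Median-of-ratios scaling gave 101 and 63 (20.3% and 22.8% of all genes), and quantile normalization 164 and 21 (19.1% and 23.5%). In fits added after seeing the data, without replicate 2 of the 227-day bulbs, these were 67 and 64 (18.3% and 21.0%) and 131 and 18 (17.8% and 21.6%). With 1 library left out, 15 to 27 were higher, the fewest without replicate 2 of the 192-day bulbs, and 161 to 206 lower, while the F test called 416 to 432 in place of 424. With median-of-ratios scaling the position of the set was −0.015 in 227-day bulbs, 0.050 in flowers and −0.29 in buds (log2). The median spread within groups, 0.17, ranged from 0.164 to 0.173 with 1 library left out, and was lowest without replicate 3 of the 217-day bulbs.

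Same-numbered libraries did not deviate together: 31 of 234 pairs correlated above 0.1, with a median of −0.018. With a replicate block, without buds, the F test called 409 steady genes (412 without the block), with 23 higher and 194 lower at 227 days (198 lower without). Depth limits little for most steady genes, since counting gave a median of 7.41% of their variance within groups, although 36.6% in the gene with the highest share. Without gene names, a steady gene cannot be tied to a role.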
